A study of Mus musculus with 9 samples.

Results

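Protocadherins are single-pass membrane proteins of the cadherin superfamily that bind a protocadherin of the same kind on the neighbouring cell. The clustered genes lie side by side on 1 chromosome as the alpha, beta and gamma clusters. In neurons each cell chooses a few of their many promoters, with the help of CTCF and cohesin, so that neighbouring cells carry different sets of isoforms. An alpha or gamma transcript joins its own variable exon to constant exons shared by the whole cluster, whereas a beta gene makes its protein from its own exon alone. The non-clustered genes lie apart from the clusters and include the delta-1 protocadherins, whose tails bind protein phosphatase 1, and the delta-2 protocadherins, whose tails bind the WAVE complex, which drives actin branching at cell contacts. *Pcdh19* is X-linked and is best known for its role in a form of epilepsy.

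The members were taken by gene symbol, as every symbol that starts with Pcdh followed by a digit or by a, b or g. The rule found 69 of the 52459 gene symbols, namely 13 of the alpha cluster, 22 of the beta cluster, 22 of the gamma cluster and 12 non-clustered genes, with 186 annotated transcripts between them. All RNA came from NMuMG cells, a mouse mammary gland epithelial line, that were stably transfected with a pBICEP-based vector and kept as G418-selected pools. Mock cells carried the empty vector, EPR cells the full-length lncRNA BC030870 (EPR), and EPRSTOPE cells the same RNA with a codon of its small open reading frame changed to a stop, so that it cannot make the peptide EPRp. Each condition had 3 libraries, numbered 203 to 205 for mock, 206 to 208 for EPR and 209 to 211 for EPRSTOPE. The study calls them biological triplicates but does not say whether each library came from its own pool. The p-values therefore measure the spread between these libraries, and a difference between pools cannot be told apart from a difference between conditions.

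The libraries held 5972457 to 11876435 estimated counts, so that 3 counts stood for 0.253 to 0.502 CPM, counts scaled to a library total of 1000000. BC030870 had 0 to 2 counts in the mock libraries, 214 to 271 in the EPR libraries and 28 to 39 in the EPRSTOPE libraries. The labelled cell type was checked on 8 epithelial genes. *Krt8* and *Krt18*, keratins of simple epithelia, stood at 2108 and 1526 CPM in mock cells, but *Epcam* and *Cldn7* had no count there and *Cdh1*, the E-cadherin gene, averaged 0.84 CPM. In the transfectants *Cdh1* averaged 556 CPM (EPR) and 403 CPM (EPRSTOPE). All 7 epithelial genes tested passed as higher in EPR than in mock cells, and 4 of 7 in EPRSTOPE cells. *Epcam* met the filter described below only through the EPR libraries, and *Cldn7* did not meet it. *Cdh1* and *Ocln*, the occludin gene, met it only through the transfectants. These counts therefore describe only the genes tested. Of 7 mesenchymal genes tested, 1 passed as higher and 5 as lower in EPR cells, against 1 and 2 in EPRSTOPE cells. The higher one, *Pdgfra*, had no count in mock cells and met the filter only through the transfectants. Over all genes tested, 15.2% passed as higher and 12.9% as lower in EPR cells, and 15.6% and 12.4% in EPRSTOPE cells. *Epcam* and *Cldn7* were also near 0 in EPRSTOPE cells (0.11 and 0 CPM on average), and *Cldn7* averaged 0.23 CPM in EPR cells. *Krt19*, another keratin, stood at 279.80 CPM in mock cells. The mock cells thus held keratin RNA but nearly no *Cdh1*, and every comparison with mock below was made against such cells. The part of the differences in epithelial and mesenchymal genes in the protocadherin results was not tested.

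Of the 69 members, 9 had no count in any library and 28 had fewer than 10 counts in all libraries together. Testing was limited to genes that reached 1 CPM in 3 or more libraries, which left 20 members (1 alpha, 3 beta, 10 gamma and 6 non-clustered) and set aside the other 49. A gene was called when edgeR (quasi-likelihood, Benjamini-Hochberg over 15370 genes) gave an adjusted p under 0.01 and its log2 fold change passed 0.5 in either direction. In EPR against mock cells 8 of the 20 members were called, 2 higher and 6 lower. Over all genes tested 28.1% were called in that comparison, 15.2% higher and 12.9% lower. In EPRSTOPE against mock cells 9 of the 20 were called, 4 higher and 5 lower, beside 28.0% of all genes, 15.6% higher and 12.4% lower. In EPR against EPRSTOPE cells 7 of the 20 were called, 1 higher and 6 lower, beside 13.2% of all genes, 6.86% higher and 6.35% lower. A member that is present in 1 condition only can pass the filter through that condition, so these counts describe the members tested and not the family. In all, 11 members were called in at least 1 comparison, and the 6 non-clustered genes tested were among them. Both comparisons with mock use the same 3 mock libraries. The median log2 fold change of all genes was -0.01, -0.04 and 0.01 in the 3 comparisons. In bulk RNA, fewer cells that express a gene and less of its RNA per cell cannot be told apart.

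The promoters of the 4 non-clustered genes that differed most in how they moved are shown first, since *Pcdh7* rose in both transfectants, *Pcdh17* and *Pcdh18* fell in both, and *Pcdh19* fell in one and rose in the other. The windows run from 250 bases before to 50 bases after the RefSeq start on GRCm38.p6, 5′ to 3′ on the gene's strand, at chr5:57717831-57718130 (+), chr14:84443313-84443612 (+), chr3:49757267-49757566 (-) and chrX:133688944-133689243 (-). Capitals mark CG pairs.
Pcdh7: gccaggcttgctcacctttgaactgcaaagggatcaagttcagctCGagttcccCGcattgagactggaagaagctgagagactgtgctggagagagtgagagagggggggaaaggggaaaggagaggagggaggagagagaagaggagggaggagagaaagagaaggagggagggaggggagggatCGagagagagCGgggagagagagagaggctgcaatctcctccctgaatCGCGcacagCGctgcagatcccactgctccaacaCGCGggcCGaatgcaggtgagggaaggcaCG
Pcdh17: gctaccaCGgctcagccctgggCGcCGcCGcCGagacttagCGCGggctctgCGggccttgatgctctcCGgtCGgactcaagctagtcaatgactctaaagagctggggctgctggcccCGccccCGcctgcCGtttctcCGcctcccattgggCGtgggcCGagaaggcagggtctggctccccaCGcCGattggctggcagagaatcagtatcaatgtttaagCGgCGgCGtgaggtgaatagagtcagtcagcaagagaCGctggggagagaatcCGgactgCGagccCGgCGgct
Pcdh18: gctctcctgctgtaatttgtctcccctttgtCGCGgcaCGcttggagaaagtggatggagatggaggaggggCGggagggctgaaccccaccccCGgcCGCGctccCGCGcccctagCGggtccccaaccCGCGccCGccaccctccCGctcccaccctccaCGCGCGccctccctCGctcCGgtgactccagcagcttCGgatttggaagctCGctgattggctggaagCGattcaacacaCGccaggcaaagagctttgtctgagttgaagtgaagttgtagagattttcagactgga
Pcdh19: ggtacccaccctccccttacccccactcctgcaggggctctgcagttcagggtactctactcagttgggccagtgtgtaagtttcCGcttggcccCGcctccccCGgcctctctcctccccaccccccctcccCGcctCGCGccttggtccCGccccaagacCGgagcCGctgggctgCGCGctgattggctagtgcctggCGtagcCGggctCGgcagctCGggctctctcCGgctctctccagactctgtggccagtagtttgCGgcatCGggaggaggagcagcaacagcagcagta
The windows of *Pcdh17*, *Pcdh18* and *Pcdh19* held 26, 23 and 18 CG pairs, more than 83.1%, 78.5% and 70.3% of 32851 mouse promoter windows of the same length, whose median was 7. The *Pcdh10* window held 24 and lay above 80.0% of windows. The *Pcdh7* window held 11 CG pairs, above 58.6% of windows. The letters CCAAT or ATTGG, the CCAAT box read on both strands, occurred in 37.4% of all windows. They were in the windows of *Pcdh10*, *Pcdh17*, *Pcdh18* and *Pcdh19* and not in that of *Pcdh7*. They were also in those of *Pcdh8*, *Pcdh9*, *Pcdh15* and *Pcdh20*, genes with too few counts to be tested. The E-box CACCTG or CAGGTG (each the reverse complement of the other), which the Snail and ZEB repressors bind, occurred in 20.2% of all windows. It was found once in the *Pcdh7* and once in the *Pcdh15* window, and in none of *Pcdh10*, *Pcdh17*, *Pcdh18* and *Pcdh19*. The motifs were chosen after the sequences and the fold changes were known. A match describes the letters and not a bound site.

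*Pcdh7* was the most abundant member in every condition. This delta-1 protocadherin (ENSMUSG00000029108.14, GRCm38 chr5:57717967-58133230, + strand) is also called BH-protocadherin. It stood at 92.12, 88.95 and 97.35 CPM in the mock libraries, 208.77, 216.95 and 206.52 CPM in the EPR libraries, and 330.86, 326.33 and 366.25 CPM in the EPRSTOPE libraries. The 3 conditions did not overlap and ran in the order mock, EPR, EPRSTOPE. The log2 fold change was 1.18 (SE 0.06, adjusted p = 2.4e-08) in EPR against mock cells and 1.88 (SE 0.06, adjusted p = 4.4e-10) in EPRSTOPE against mock cells. EPR cells were lower than EPRSTOPE cells by a log2 fold change of -0.70 (SE 0.06, adjusted p = 5.7e-06). The transcript Pcdh7-201 held 60.4%, 61.7% and 59.9% of the gene's estimated counts in mock, EPR and EPRSTOPE cells. The next transcripts varied more, with 11.9%, 7.64% and 15.7% for Pcdh7-202 (0.593% to 16.4% over the EPR libraries) and 15.9%, 18.5% and 11.9% for Pcdh7-205.

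*Pcdh1*, the other delta-1 gene tested, fell in both transfectants and to the same range of levels. *Pcdh1* (ENSMUSG00000051375.15, chr18:38185914-38212053, - strand) is known from airway epithelium, where it sits at cell contacts. Its values were 71.46, 68.90 and 68.62 CPM in mock, 38.58, 33.34 and 31.77 CPM in EPR, and 33.88, 31.71 and 35.44 CPM in EPRSTOPE libraries. Every transfectant library lay below every mock library, while the EPR and EPRSTOPE libraries overlapped. The log2 fold change was -1.01 (SE 0.08, adjusted p = 1.1e-06) for EPR and -1.05 (SE 0.09, adjusted p = 8.2e-07) for EPRSTOPE against mock cells. Between EPR and EPRSTOPE cells it was 0.04 (SE 0.09, adjusted p = 0.78). With counts rebuilt from the deposited TPM and transcript lengths, the EPR value was -0.62 and its adjusted p 0.017, which ended the call. Pcdh1-202 held 50%, 62.3% and 49.1% of the gene's counts in mock, EPR and EPRSTOPE cells, and the longer Pcdh1-203 held 24.9%, 13.4% and 18.9%. In single libraries the share of Pcdh1-202 ran from 43.2% to 57.8% in mock and from 38% to 73.1% in EPR cells. In EPRSTOPE libraries it ran from 2.5% to 74.4%.

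The other delta-1 genes were near or at 0. *Pcdh9* had 15 counts in the mock, 18 in the EPR and 0 in the EPRSTOPE libraries together and was not tested. Its mock counts were 9, 0 and 6, so mock library 204 had none either. Against the 3 counts that a count of 0 allows over a condition, *Pcdh9* was at least 4.25-fold lower in EPRSTOPE than in mock cells. This bound takes the 15 mock counts as exact. *Pcdh11x* had no count in any library. The summed level of the 4 delta-1 genes was 158 to 166 CPM in mock, 239 to 251 CPM in EPR and 358 to 402 CPM in EPRSTOPE libraries.

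**Figure D1:**
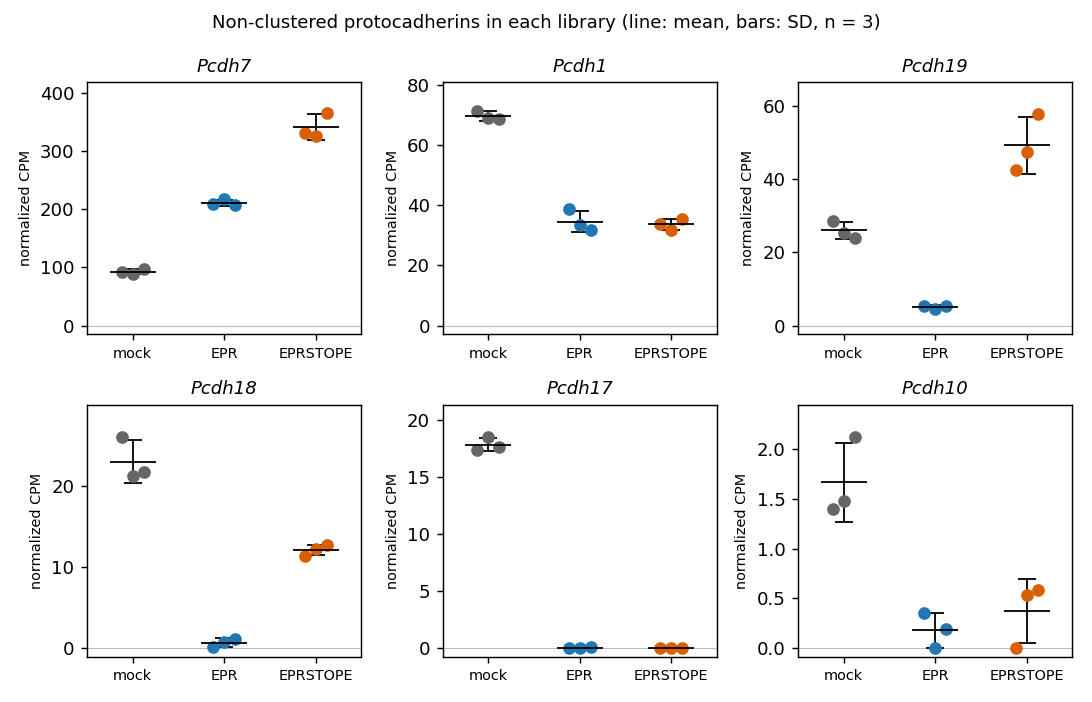
Normalized CPM (vertical axes, linear, a different range in each panel) of the 6 non-clustered protocadherins tested, by condition. Points are libraries, long lines the means and bars the SD over 3 libraries; *Pcdh7* rises from 92.81 CPM in mock to 341.15 CPM in EPRSTOPE cells, while *Pcdh19* is lowest in EPR cells at 5.10 CPM and highest in EPRSTOPE cells at 49.19 CPM.

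All 4 delta-2 protocadherins tested were called lower in EPR than in mock cells, beside 12.9% of all genes tested. In EPRSTOPE cells 2 of the 4 were called lower and 1 higher, beside 12.4% and 15.6% of all genes. *Pcdh17* and *Pcdh10* met the filter only through the mock libraries, where they were highest, so these counts describe only the genes tested. In the direct comparison *Pcdh18* and *Pcdh19* were called lower in EPR than in EPRSTOPE cells. The 5 delta-2 genes summed to 65.5 to 73.3 CPM in mock, 5.3 to 6.82 CPM in EPR and 53.9 to 70.9 CPM in EPRSTOPE libraries. The sums of EPRSTOPE and mock libraries overlapped, although the proportions of *Pcdh17*, *Pcdh18* and *Pcdh19* in them differed.

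*Pcdh19* moved in opposite directions in the transfectants. The gene (ENSMUSG00000051323.16, chrX:133582860-133688987, - strand) encodes a homophilic adhesion protein that also acts together with N-cadherin. It stood at 28.58, 25.32 and 24.01 CPM in mock, 5.32, 4.55 and 5.42 CPM in EPR, and 42.52, 47.41 and 57.65 CPM in EPRSTOPE libraries. No library of one condition reached the range of another. EPR cells were lower than mock cells by a log2 fold change of -2.33 (SE 0.14, adjusted p = 8e-08), and EPRSTOPE cells were higher by 0.93 (SE 0.12, adjusted p = 4.6e-05). In the direct comparison EPR cells were lower than EPRSTOPE cells by -3.26 (SE 0.14, adjusted p = 1.8e-08). The study named *Pcdh19* among the transcripts affected by the peptide, starting from its RNA-seq comparison of EPR and EPRSTOPE cells. The direction of *Pcdh19* here is therefore not independent evidence. For that step the study also reported independent EPRSTOPE transfectant pools with qRT-PCR, and another peptide-null mutant, EPRSTOPM. Whether any library here came from those pools is not stated.

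The counts of *Pcdh19* fell almost wholly on 3 transcripts. Pcdh19-202, the longest, held 50% of the gene's counts in mock cells, 16.2% with EPR and 43.7% with EPRSTOPE. Pcdh19-203 held 42.1%, 83.3% and 55.6%, and Pcdh19-201 held 7.95%, 0% and 0.502%. In single mock libraries the share of Pcdh19-203 ran from 20.2% to 59.7%, and in the EPR libraries, with 36.0 to 61.0 counts for the gene, from 77.1% to 100%. The forward qRT-PCR primer of the study is shown because these transcripts differ at its site, and the reverse primer because they do not.
Pcdh19 forward primer: TCAAAAGCAGCTCCACCTTCA
Pcdh19 reverse primer: GCAGTATCGCAGTACAGGCT
The forward primer crossed the junction of exons 3 and 4 of Pcdh19-201 and of exons 4 and 5 of Pcdh19-202 in the reference transcripts. It had no exact match in Pcdh19-203, where the exon after that junction is 170 rather than 173 bases long (chrX:133625269-133625438 against chrX:133625269-133625441). The reverse primer matched all 3 transcripts within that exon, at chrX:133625328-133625347. Pcdh19-202 also holds an exon of 141 bases (chrX:133682092-133682232) that is in neither of the other 2.

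**Figure D2:**
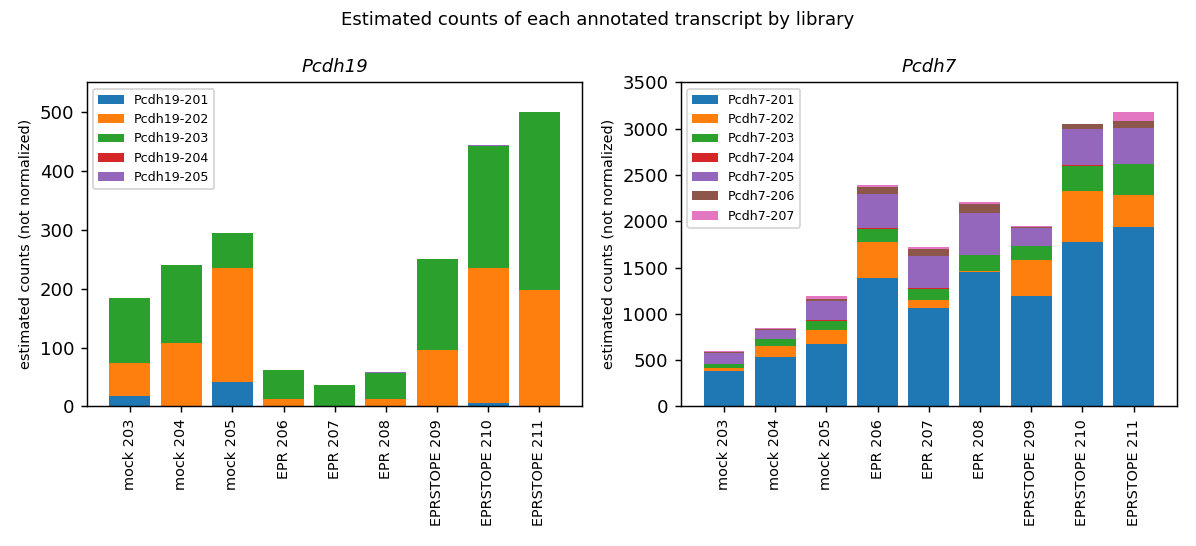
Estimated counts (vertical axes, linear, not normalized for depth) of each annotated transcript of *Pcdh19* and *Pcdh7* in the 9 libraries, stacked by transcript. The few *Pcdh19* counts of EPR cells fall mostly on Pcdh19-203 (83.3%), whereas Pcdh7-201 holds the largest part of *Pcdh7* in each condition (60.4%, 61.7% and 59.9%).

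*Pcdh18* was close to lost in EPR cells and reduced in EPRSTOPE cells. This delta-2 gene (ENSMUSG00000037892.13, chr3:49743296-49757325, - strand), whose product binds the adaptor Dab1, stood at 25.94, 21.21 and 21.73 CPM in mock, 0.09, 0.76 and 1.12 CPM in EPR, and 11.35, 12.17 and 12.66 CPM in EPRSTOPE libraries. The 3 conditions were apart in every library. EPR cells were lower than mock cells by -5.14 (SE 0.35, adjusted p = 1.9e-07) and lower than EPRSTOPE cells by -4.22 (SE 0.36, adjusted p = 4.4e-06) on the log2 scale. EPRSTOPE cells were lower than mock cells by -0.92 (SE 0.24, adjusted p = 0.0077). That last call was lost when any mock or EPRSTOPE library was left out (adjusted p from 0.018 to 0.03, values from -0.84 to -0.98), without EPR library 207 (adjusted p = 0.01) and with rebuilt counts (adjusted p = 0.046).

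*Pcdh17* was all but absent outside mock cells. This delta-2 gene (ENSMUSG00000035566.6, chr14:84443563-84539002, + strand) is known for binding the WAVE complex at axon contacts. It had 17.40, 18.47 and 17.66 CPM in the mock libraries, 0, 0 and 0.09 CPM in the EPR libraries, and no count in the EPRSTOPE libraries. The mock libraries held 504 counts together and the EPR libraries 1, a ratio of 538 with a 95% counting interval from 96 to 21274 (adjusted p = 1.1e-07). In EPRSTOPE cells it was at least 143-fold lower than in mock cells, against 3 counts over the condition (adjusted p = 1.2e-07). The median over the 466 tested genes of chromosome 14 was 0.50 for EPR and 0.64 for EPRSTOPE against mock cells on the log2 scale, so *Pcdh17* fell while its chromosome's median was raised. The medians of chromosomes 3, 5, 18 and X lay between -0.12 and 0.02 in these comparisons.

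*Pcdh10* (ENSMUSG00000049100.15, chr3:45378398-45435623, + strand), which also binds the WAVE complex, was scarce throughout. It had 1.40, 1.48 and 2.12 CPM in mock, 0.35, 0 and 0.19 CPM in EPR, and 0, 0.53 and 0.58 CPM in EPRSTOPE libraries. All transfectant libraries lay below the mock libraries. The log2 fold change was -3.03 (SE 0.74, adjusted p = 0.0048) in EPR cells and -2.02 (SE 0.69, adjusted p = 0.029) in EPRSTOPE cells, where it was not called. The call in EPR cells was lost without EPR library 207 (-2.58, adjusted p = 0.014), without 208 (-2.98, adjusted p = 0.019) and with rebuilt counts (-3.70, adjusted p = 0.015). EPR and EPRSTOPE libraries overlapped and their difference was not called (adjusted p = 0.44). *Pcdh8*, the remaining delta-2 gene, had 1 count in all.

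The other non-clustered genes were not measurable at this depth. *Pcdh12*, an endothelial protocadherin also called VE-cadherin-2, had 3 counts in all libraries, *Pcdh15*, a component of the tip links of hair cells, had 11.2, and *Pcdh20* had 0.

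Levels of different genes can be compared only per transcript length, in TPM. In mock cells the order of the means was *Pcdh7* (20.43 TPM), *Pcdh1* (14.13), *Pcdh18* (7.56), *Pcdhgc3* (6.10), *Pcdh19* (2.16) and *Pcdh17* (1.40). In EPR cells it was *Pcdh7* (45.03 TPM), *Pcdh1* (8.01), *Pcdhgc3* (6.36), *Pcdhac2* (0.64) and *Pcdh19* (0.56). In EPRSTOPE cells it was *Pcdh7* (73.79 TPM), *Pcdh1* (7.68), *Pcdhgc3* (7.38), *Pcdh19* (4.59), *Pcdh18* (3.34) and *Pcdhac2* (1.51). Some steps in these orders were smaller than an SD over the libraries. The SD was 3.15 TPM for *Pcdh18* in mock, 0.13 TPM for *Pcdh19* in EPR and 1.64 TPM for *Pcdhgc3* in EPRSTOPE cells.

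**Figure D3:**
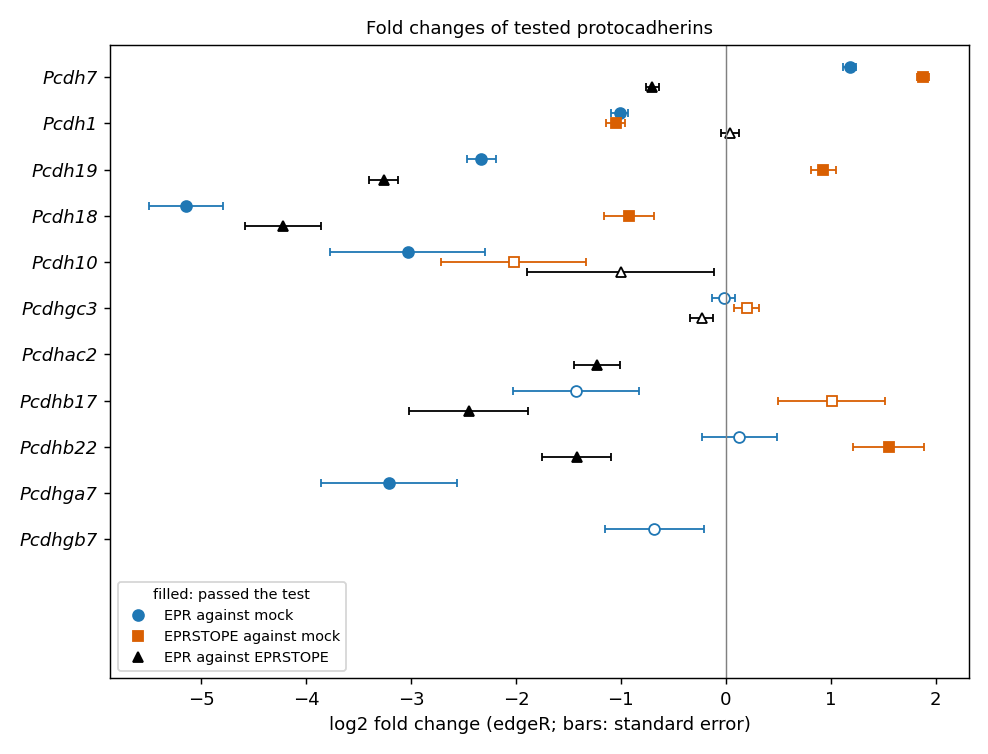
Log2 fold changes (horizontal axis, linear) of the called members and of *Pcdhgc3*, with standard errors, for the 3 comparisons; filled symbols passed the test. Comparisons with a condition at 0 to 3 counts are left out, which is why *Pcdh17* has no row; *Pcdh19* lies at -2.33 for EPR and 0.93 for EPRSTOPE against mock, and both *Pcdh1* values against mock lie near -1.01 and -1.05.

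The alpha cluster (chr18:36930184-37187661) came down to a single gene, *Pcdhac2*, and only in the transfectants. *Pcdhac2* encodes a C-type isoform, the kind that neurons make without promoter choice. It had no count in the 3 mock libraries, 4.10, 4.55 and 4.86 CPM in the EPR libraries, and 8.81, 10.79 and 11.97 CPM in the EPRSTOPE libraries. The conditions were apart in every library. Against 3 counts over the mock libraries it was at least 42.2-fold higher in EPR cells (adjusted p = 1.1e-06) and at least 101-fold higher in EPRSTOPE cells (adjusted p = 1.7e-07). EPR cells were lower than EPRSTOPE cells by -1.23 on the log2 scale (SE 0.22, adjusted p = 0.0022), a call that was lost without EPR library 206 (adjusted p = 0.013), without 207 (0.01), without EPRSTOPE library 211 (0.012) and with rebuilt counts (0.015). Of the other 12 alpha symbols, 5 had no count at all, and the most abundant, *Pcdha8*, had 24.6 counts in all libraries. *Pcdhac2* held 75.8% to 92.3% of the alpha counts in EPR libraries and 91.2% to 98.1% in EPRSTOPE libraries.

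Reads from the constant exons fit every member of the alpha or gamma cluster, and kallisto divides them between the members. Of the 31-mers in each member's longest transcript, a median of 37.3% (29.8% to 51.6%) were found in no other member for alpha, 52.5% (32.2% to 93.3%) for gamma and 88.2% (77.5% to 100%) for beta genes, and 100% for the 11 non-clustered genes matched. Values of single alpha and gamma genes therefore rest in part on that division, whereas the sum over a cluster does not. The alpha sum was 0.16 ± 0.16 CPM in mock, 5.44 ± 0.53 CPM in EPR and 11.09 ± 1.99 CPM in EPRSTOPE cells (SD, n = 3 libraries each).

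The beta cluster (chr18:37264938-37524479) was higher in EPRSTOPE cells than in both other conditions. Its sum was 6.48 ± 0.32 CPM in mock, 5.43 ± 1.02 CPM in EPR and 13.22 ± 2.04 CPM in EPRSTOPE cells (SD, n = 3). The lowest EPRSTOPE library, at 11.52 CPM, lay above the highest of the other libraries, at 6.68 CPM. *Pcdhb22* had 2.02, 1.06 and 1.79 CPM in mock, 1.75, 2.40 and 1.21 CPM in EPR, and 4.40, 5.13 and 4.60 CPM in EPRSTOPE libraries. It was higher in EPRSTOPE than in mock cells by 1.55 (SE 0.34, adjusted p = 0.0024) and EPR cells lay below EPRSTOPE cells by -1.42 (SE 0.33, adjusted p = 0.0068), while EPR and mock libraries overlapped. Pcdhb22-201, one of its 2 transcripts, held 40% of its counts in EPRSTOPE cells, 6.22% in mock and 0% in EPR cells. *Pcdhb17* had 0.93, 2.22 and 0.81 CPM in mock, 0.35, 1.01 and 0.19 CPM in EPR, and 2.37, 2.78 and 2.88 CPM in EPRSTOPE libraries. It was called only between EPR and EPRSTOPE cells, at -2.45 (SE 0.57, adjusted p = 0.0068), although every EPRSTOPE library also lay above every mock library. Both direct calls were lost without EPR library 206 or 208 and without any of the EPRSTOPE libraries, with adjusted p from 0.012 to 0.032. The *Pcdhb22* one was also lost without mock library 205 (0.01) and the *Pcdhb17* one with rebuilt counts (0.042), and the *Pcdhb22* call against mock was lost without mock library 204 (1.31, adjusted p = 0.012). *Pcdhb16*, the remaining beta gene tested, was not called in any comparison, and the other 19 were below the filter.

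The gamma cluster (chr18:37661793-37841873) was the most abundant of the 3, and its sum overlapped between conditions. It summed to 57.25 ± 8.41 CPM in mock, 46.79 ± 7.93 CPM in EPR and 54.61 ± 4.40 CPM in EPRSTOPE cells (SD, n = 3). Most of this was *Pcdhgc3*, a C-type isoform, which is described here after its values were seen. *Pcdhgc3* had 30.29, 37.04 and 36.06 CPM in mock, 38.67, 32.71 and 30.56 CPM in EPR, and 35.75, 43.46 and 39.81 CPM in EPRSTOPE libraries. Its log2 fold changes of -0.02 (SE 0.11), 0.20 (SE 0.12) and, between EPR and EPRSTOPE, -0.23 (SE 0.11) were not called (adjusted p = 0.89, 0.18 and 0.17). It held 57.9% to 63.7% of the gamma counts in mock, 69.1% to 77.5% in EPR and 71.5% to 74% in EPRSTOPE libraries.

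Without *Pcdhgc3*, the gamma cluster summed to 17.24, 24.90 and 26.21 CPM in mock, 17.28, 9.47 and 11.68 CPM in EPR, and 14.23, 15.27 and 15.30 CPM in EPRSTOPE libraries. Mock library 203 stood apart from the other mock libraries here and met EPR library 206. *Pcdhga7*, an A-type gene, had 2.17, 3.48 and 3.91 CPM in mock, 0.17, 0.51 and 0.37 CPM in EPR, and 0.51, 0 and 0 CPM in EPRSTOPE libraries. It fell in EPR cells by -3.21 (SE 0.65, adjusted p = 0.0014), and in EPRSTOPE cells its counts were lower by a ratio of 26.9 (counting interval 8.93 to 133, adjusted p = 0.00054). *Pcdhgb7*, a B-type gene, had 1.40, 1.69 and 1.71 CPM in mock and 0.79, 1.64 and 0.65 CPM in EPR libraries, and no count in EPRSTOPE libraries. The bound in EPRSTOPE cells was at least 13-fold lower against mock (adjusted p = 0.00026) and at least 7.7-fold lower against EPR cells (adjusted p = 0.0017), whereas EPR and mock libraries overlapped (adjusted p = 0.27). The other 8 gamma genes tested, *Pcdhgc3* included, were called in no comparison. *Pcdhga10* did not pass the filter: it had 6.75 and 7.08 CPM in mock libraries 204 and 205, 0 in mock library 203 and at most 0.37 CPM in the 6 others.

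**Figure D4:**
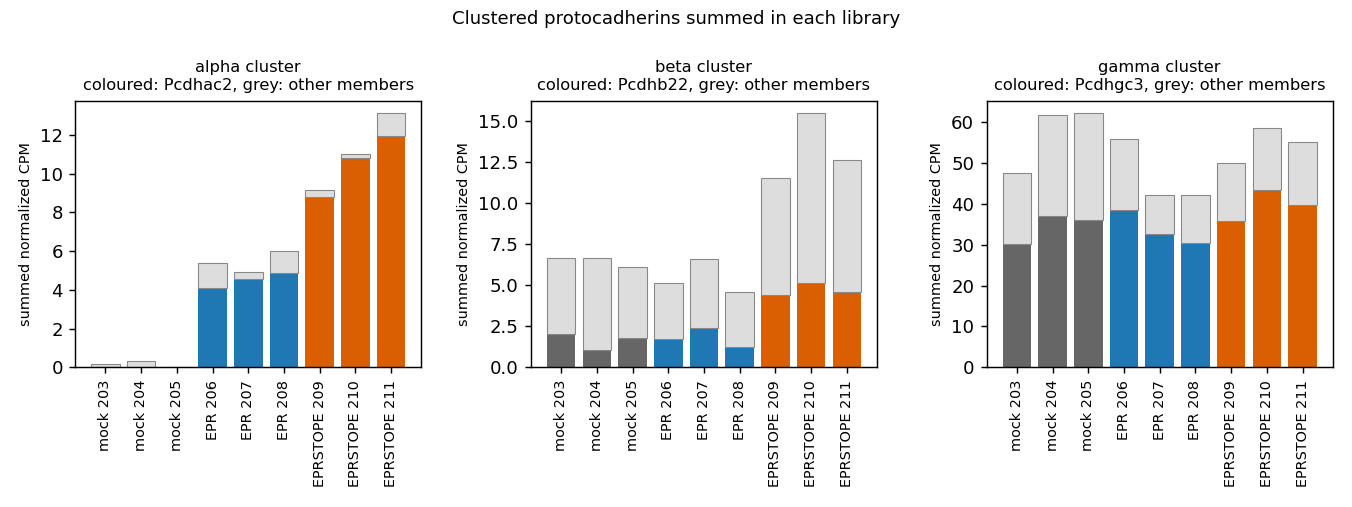
Summed normalized CPM (vertical axes, linear, starting at 0) of the alpha, beta and gamma clusters in each of the 9 libraries, with the most abundant member in colour and the others in grey. The alpha bars reach at most 0.32 CPM in mock and run from 4.92 to 13.12 CPM in the other libraries, the beta bars of EPRSTOPE cells (11.52 to 15.48 CPM) stand above the rest, and the gamma bars overlap.

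Genes that act with protocadherins were taken as lists by role and are described by counts. Of 9 genes of the WAVE complex and its actin partners, none was called higher and 2 lower in each comparison with mock. Their median log2 fold changes were -0.03 and 0.15. Over all genes tested, 15.2% were called higher and 12.9% lower in EPR cells, and 15.6% and 12.4% in EPRSTOPE cells. *Cyfip2*, a WAVE subunit, averaged 4.15 CPM in mock cells with no count in either transfectant, at least 39.1-fold lower in EPR and 31.2-fold lower in EPRSTOPE cells (adjusted p = 9.4e-05 and 0.00013). *Abi2*, another subunit, fell by -0.59 and -0.50 (adjusted p = 0.0015 and 0.005). The *Abi2* call in EPRSTOPE cells was lost with DESeq2 (-0.50), with the compared conditions alone (-0.49), with rebuilt counts (adjusted p = 0.018), and without mock library 204 (0.012) or 205 (0.023) or EPRSTOPE library 210 (0.012) or 211 (0.019), and that in EPR cells with rebuilt counts (0.014). Without any 1 mock library *Cyfip2* was no longer tested. Of 10 kinases and adaptors bound by protocadherin tails, 2 were higher and 3 lower in EPR, and 2 higher and 2 lower in EPRSTOPE cells, with medians of -0.20 and -0.13. *Ptk2b* (Pyk2) rose by 1.16 and 1.22 and *Ptk2* (FAK) by 0.51 and 0.73. The *Ptk2* value in EPR cells was 0.47 and not called without mock library 205. *Fyn*, a Src-family kinase, fell by -1.18 and -1.26, and *Ppp1ca*, a catalytic subunit of protein phosphatase 1, fell in EPRSTOPE cells by -0.76 (adjusted p = 3.6e-07) and stood at -0.38 in EPR cells, where it was not called. No gene of these lists was called between EPR and EPRSTOPE cells, beside 13.2% of all genes tested.

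Of the 7 proteases that cleave protocadherins, ADAM10 and the gamma-secretase subunits, 3 were higher in EPR and 4 in EPRSTOPE cells and none was lower, with medians of 0.41 and 0.64, beside 15.2% and 15.6% of all genes called higher. *Adam10* rose by 0.77 and 0.66, and *Ncstn* by 0.71 and 0.80. *Aph1a* was called in EPRSTOPE cells, at 0.59 (0.50 and not called without EPRSTOPE library 210), and stood at 0.40 in EPR cells, where it was not called. Of 15 chromatin regulators of the clusters, 5 were lower in EPR and 4 in EPRSTOPE cells and none was higher, with medians of -0.42 and -0.35. *Smc3*, a cohesin subunit, fell by -0.75 and -1.13, *Wiz* by -1.13 and -1.14, and *Smchd1*, which silences the clusters in some tissues, by -0.67 and -0.55. *Dnmt1*, the maintenance DNA methyltransferase, fell by -0.93 in EPR cells and was lower in EPR than in EPRSTOPE cells by -0.54 (adjusted p = 1.5e-05; -0.49 and not called without EPRSTOPE library 209), with -0.38 in EPRSTOPE against mock cells. Beside these, 12.9% and 12.4% of all genes tested were called lower than mock. Of 10 genes tested beside the clusters, 2 were higher and 1 lower in EPR cells, and 1 was higher in EPRSTOPE cells, with medians of -0.09 and 0.03. *Wdr55* fell by -0.65 in EPR cells, *Fchsd1* rose there by 1.05 (0.21 with rebuilt counts, adjusted p = 0.8), and *Arap3* rose by 2.87 and 3.15 from 0.16 CPM. *Arap3* met the filter only through the transfectants. Both *Arap3* calls were lost with limma-voom (adjusted p = 0.014 and 0.012) and without mock library 203 or 204. The EPR call was also lost without EPR library 206 or 208 or EPRSTOPE library 211, and the EPRSTOPE call without EPRSTOPE library 209 or 211, with adjusted p from 0.01 to 0.03. With rebuilt counts the calls of *Wdr55* (0.014), *Smc3* in EPR cells (0.013) and *Smchd1* (0.011 and 0.076) and the direct call of *Dnmt1* (0.015) were lost too, the values in brackets being adjusted p.

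Other cadherins moved as well. Of 9 related large cadherins tested, 3 were higher and 3 lower in EPR, and 4 higher and 2 lower in EPRSTOPE cells. Their medians were 0.06 and 0.27. *Fat4* met the filter only through the mock libraries and *Cdhr5* only through the EPRSTOPE libraries, so these counts describe only the genes tested. Over all genes tested, 15.2% were called higher and 12.9% lower in EPR cells, and 15.6% and 12.4% in EPRSTOPE cells. *Fat1* rose by 1.07 and 0.68 and *Celsr1*, a planar polarity cadherin, by 1.66 and 1.55. *Fat4* fell from 45.72 CPM in mock to 0.67 CPM in EPR and 0.25 CPM in EPRSTOPE cells (-6.01 and -7.23, adjusted p = 1.6e-08 and 1.2e-08). *Cdhr5*, a protocadherin-like protein of microvilli, averaged 17.3 CPM in EPRSTOPE and 0.35 CPM in EPR cells with no count in mock cells, at least 162-fold and 3.44-fold higher. With the EPR and mock libraries alone, or without any 1 EPRSTOPE library, *Cdhr5* was not tested. Among 5 classical cadherins and catenins tested, 3 were higher and 1 lower in each transfectant, with medians of 0.77 and 0.51. *Cdh1* was among those tested only through the transfectants. *Cdh1* rose by 9.23 and 8.76, *Ctnnb1* by 1.66 and 1.24 and *Ctnnd1* by 0.77 and 0.51 (0.48 to 0.50 and not called without mock library 203 or 204 or EPRSTOPE library 210 or 211), while *Cdh2*, the N-cadherin gene, fell by -1.32 and -1.06. With rebuilt counts the calls of *Ctnnb1* (adjusted p = 0.041 and 0.098) and *Ctnnd1* (0.13 and 0.2) were lost.

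Markers of 2 cell types in which protocadherins are abundant were set beside these values. The 8 neuronal genes summed to 25.9 to 29.7 CPM in mock, 0.884 to 2.43 CPM in EPR and 5.87 to 8.28 CPM in EPRSTOPE libraries. The largest part was *Map2*, a microtubule-associated gene, at 24.45, 1.38 and 5.54 CPM, which fell by -4.07 and -2.15 (adjusted p = 2.2e-07 and 1.5e-05). *Tubb3*, a neuronal tubulin, averaged 1.84, 0.18 and 1.09 CPM and was called lower in EPR than in mock cells (-3.11, adjusted p = 0.0015) but not in EPRSTOPE cells (-0.72, adjusted p = 0.28). The call in EPR cells was lost with rebuilt counts (-2.88, adjusted p = 0.013). *Snap25* had no count in any library, and *Rbfox3*, *Stmn2*, *Syp*, *Dcx* and *Elavl3* averaged at most 0.41 CPM in each condition. The 6 endothelial genes summed to 11.2 to 12.6 CPM in mock, 12 to 15.7 CPM in EPR and 11.7 to 17.4 CPM in EPRSTOPE libraries, mostly *Pecam1*, which was not called (adjusted p = 0.52 and 0.22). *Cdh5* had no count in mock cells.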

How the data were processed

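Total RNA of 9 NMuMG libraries (3 conditions, 3 libraries each) was sequenced as stranded paired-end libraries. The authors deposited, for each library, kallisto output on Gencode vM15 transcripts with estimated counts and TPM; kallisto 0.43.1 and bcl2fastq 2.0 are named in the submitters' processing notes. Estimated counts deposited by the authors were summed over the 131100 transcripts to 52459 gene symbols and rounded. TPM deposited by the authors were summed per symbol and averaged over libraries for levels between genes.

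Conditions were taken from the labels. Genes that reached 1 CPM in 3 or more libraries entered edgeR 4.0.16 (quasi-likelihood, TMM, 1 factor of 3 levels, all libraries in a single fit), and p-values were adjusted by Benjamini-Hochberg over 15370 genes. CPM are TMM-normalized. All adjusted p-values in the text come from this test unless an alternative is named. DESeq2 1.42.0, limma-voom 3.58.1, other filters, other thresholds, counts scaled from TPM and length, the compared conditions alone and leaving out each library were alternatives. The edgeR, DESeq2 and limma-voom tests were tried on simulated counts for EPR against mock cells with the main filter. The other alternatives, the counting intervals, the floors and the sequence steps were not tried on simulated data. Counting intervals (95%) and floors of 3 counts cover counting error only. The floors cover it for the condition without counts and take the counts of the other condition as exact. Within a condition libraries had Spearman correlations of 0.978 to 0.989 across genes, and between conditions 0.897 to 0.958.

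Sequences were matched by symbol or versioned transcript ID: 184 of 186 member transcripts were in the Gencode M21 reference (GRCm38), and promoters came from RefSeq tables on GRCm38.p6. Sequences of the clusters, *Pcdh1* and *Pcdh12* are not shown.

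The members and gene lists were chosen with earlier results of these data known. Named were every non-clustered member, every clustered member called in at least 1 comparison, and the called genes with the 4 smallest adjusted p in each list. A gene that met this rule is not reported here. *Pcdhgc3*, *Pcdhb16*, *Pcdha8*, *Pcdhga10* and the marker genes were added to these.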

Additional observations from a re-analysis of the deposited data

Results flagged for a closer look

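For 7 members the difference between EPR and EPRSTOPE cells was itself past the threshold, so that their changes against the shared mock libraries differed between the transfectants. *Pcdh19* went in opposite directions (-2.33 and 0.93 against mock, adjusted p of the difference 1.8e-08 by edgeR). *Pcdh18* fell further in EPR cells (-5.14 and -0.92, adjusted p = 4.4e-06), and *Pcdh7* rose further in EPRSTOPE cells (1.18 and 1.88, adjusted p = 5.7e-06). *Pcdhac2* was at 4.50 CPM in EPR and 10.52 CPM in EPRSTOPE cells (adjusted p = 0.0022). *Pcdhb17* stood at 0.52 and 2.67 CPM (adjusted p = 0.0068), and *Pcdhb22* at 1.79 and 4.71 CPM (adjusted p = 0.0068). *Pcdhgb7* stood at 1.03 and 0 CPM (adjusted p = 0.0017). Of all genes tested, 13.2% were called in this comparison. BC030870 itself averaged 24.87 CPM in EPR and 4.24 CPM in EPRSTOPE cells, and the part of this difference in level was not tested. With 3 libraries in each condition, single libraries were not tested as outliers.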

How the results depend on the processing

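No paired analysis was possible because the library numbers are unique and shared by no 2 conditions. The number of members called in EPR against mock cells was 8; with DESeq2 and with limma-voom it was 8 too. It was 3 when at least 10 counts were required in every library, which left 5 members to test, and 5 to 8 with 1 library left out, the lowest without any mock library. In EPRSTOPE against mock cells the 9 calls became 14 with no filter (60 members tested), 4 with at least 10 counts in every library, and 5 to 10 with 1 library left out, the lowest without mock library 204. In EPR against EPRSTOPE cells the 7 calls became 3 with at least 10 counts in every library and 4 to 7 with 1 library left out, the lowest without EPRSTOPE library 211. A gene present in mock cells alone cannot reach 1 CPM in 3 libraries once a mock library is left out. Where a called fold change of a member was tested again, 301 values kept direction and call and 29 lost the call, not counting alternatives whose filter left the member out. Of those not called, 107 stayed so with the same direction and 5 turned direction: *Pcdhb22* in EPR against mock (-0.11 without mock 204 or EPR 207, up to 0.36 without another library), and in EPR against EPRSTOPE *Pcdh1* (-0.05 without EPR 206, -0.0048 without EPRSTOPE 210, up to 0.11) and *Pcdh17* (0 without EPR 208, where no count was left, and 2.26 at most). With no filter *Pcdhga10* was called lower in both transfectants (adjusted p = 1.3e-11 and 3.2e-11), although mock library 203 had no count. At 5972457 to 11876435 counts a library, genes near 1 CPM rest on 6 to 12 counts, and a member without counts may be present below this depth.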

Other observations

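Without a filter on low counts, 7 further members had values past the threshold, as tests on few counts. *Pcdhgb8*, a B-type gamma gene, had 40 counts in mock and 1 in EPRSTOPE cells, a ratio of 34 with a counting interval from 5.76 to 1375, and was also called lower in EPR than in mock cells (-3.22, adjusted p = 0.0015 by edgeR); the mock counts came from libraries 204 and 205, with none in 203. *Pcdhb18* had 21 counts in EPRSTOPE and 2 in mock cells, a ratio of 12.4 (3.02 to 109). *Pcdhga1* had 31 counts in EPRSTOPE and 3 in EPR cells, a ratio of 13 (4.05 to 66.3). *Pcdha8* had 15 counts in EPR and none in mock cells, at least 4.69-fold higher, and *Pcdhga11* had 15 in mock and none in EPR cells, at least 5.33-fold lower. *Pcdh9* and *Pcdhga10* were described above.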
